A study of Mus musculus with 4 samples.

Results

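Chemokines and receptors that draw T cells and natural killer (NK) cells were followed across the cell types of HER2+ mammary tumours. The set was chosen by gene symbol from the mouse feature rows of the count matrices and holds 9 of 31053 mouse genes: the ligands Ccl5, Ccl3, Ccl4, Xcl1, Cxcl9, Cxcl10 and Cxcl16 and the receptors Cxcr3 and Cxcr6. The 9 were picked with UMI levels of these tumours by cell type and host genotype already known. Their differences between genotypes are therefore given as descriptions, and an adjusted p beside one of them, although taken from a fit over all genes, is not independent evidence.

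The tumours were grown from H605 cells, a HER2+ mouse mammary tumour line, placed in the mammary pad of FVB/NJ hosts aged 6 to 8 weeks. The hosts were WT or IL1α-/-, that is, lacking interleukin 1α, so the knockout concerns the host and not the implanted line. Tumours were taken on day 14, freed of red blood cells, enriched for live cells and profiled with the 10x Genomics 3' v3.1 chemistry, with 2 tumours per genotype. The labels give no further treatment and do not say whether animals were pooled, and p-values measure only the spread between these 4 samples. Values given in a row for the tumours follow the order WT replicate 1, WT replicate 2, IL1α-/- replicate 1, IL1α-/- replicate 2.

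Chemokines are small secreted proteins that guide cells through G protein-coupled receptors. Ccl3, Ccl4 and Ccl5 are made by activated lymphocytes and myeloid cells and attract T cells and monocytes, and Xcl1 from NK and CD8 T cells acts on Xcr1 of cross-presenting dendritic cells. Cxcl9 and Cxcl10 are induced by interferons in myeloid and stromal cells and bind Cxcr3 on effector lymphocytes, whereas Cxcl16 is made as a membrane-bound ligand of Cxcr6.

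The matrices held between 6705368 and 29001333 UMIs per tumour, where a UMI (unique molecular identifier) counts a transcript molecule once, with IL1α-/- replicate 1 the shallowest. After filtering, 14127 cells remained, 3130 to 3878 per tumour, at a median of 1349 to 4164 UMIs per cell, and pairs of libraries shared at most 5 cell barcodes. Il1a gave 65, 107, 1 and 0 UMIs in those cells. Each cell was placed in a class by its detected marker genes, none of which is a chemokine or chemokine receptor. Classes carry the ending "-like", and levels are given as CPM, the UMIs of a gene per 1000000 UMIs of the class in 1 tumour. Of the T/NK-like cells (2277, 2357, 2397 and 2354), 52.7% had a UMI of Cd3e. Cd8a was found in 82.0% of CD8 T-like cells, Ncr1 in 81.4% of NK-like cells, C1qa in 88.2% of macrophage-like cells and Ly6c2 in 54.6% of monocyte-like cells. The NK-like and gamma-delta T-like gates overlapped in markers: Trdc was found in 32.8% of NK-like cells, and Ncr1 in 44.9% and Cd3e in 60.2% of gamma-delta T-like cells. Plasmacytoid dendritic-like cells had Siglech in 99.3% but also Cd8a in 42.6%. The T/NK-like class differed in make-up between the genotypes: CD8 T-like cells held 6.49%, 10.4%, 45.5% and 48.8% of its UMIs and NK-like cells 35.2%, 28.4%, 17.6% and 10.9%. The phagocyte-like class differed too. Macrophage-like cells were 63.5%, 62.3%, 33.3% and 37.9% of its cells and monocyte-like cells 18.6%, 22.3%, 31.3% and 38.7%. Phagocyte-like levels were not recomputed at equal shares, so the part of this make-up in them was not tested.

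All 9 genes were detected in every tumour, and they fell to separate classes. T/NK-like cells held 89.4% to 97.7% of the Ccl5 UMIs of a tumour, 95.8% to 99.8% of the Xcl1 UMIs, 96.8% to 99.3% of the Cxcr6 UMIs and 77.5% to 94.2% of the Cxcr3 UMIs. Phagocyte-like cells, the class of macrophages and monocytes, held 51.2% to 74.7% of the Cxcl16 UMIs and 38.8% to 79.0% of the Cxcl9 UMIs. Ccl3 and Ccl4 were spread over lymphocytes, plasmacytoid dendritic-like cells, neutrophil-like cells and mast/basophil-like cells.

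The classes were ordered by mean level over the 4 tumours, WT and IL1α-/- together (SD, n = 4), among those with at least 20 cells in each. For Ccl5 the order was CD8 T-like (7728 ± 7041 CPM), NK-like (5132 ± 3032), gamma-delta T-like (2613 ± 1231), CD4 T-like (1111 ± 1352) and regulatory T-like cells (588 ± 512), and of these steps that from gamma-delta T-like to CD4 T-like cells alone exceeded the larger SD of its pair. For Xcl1 NK-like (881 ± 485 CPM), gamma-delta T-like (778 ± 402) and CD8 T-like cells (395 ± 524) came before regulatory T-like (56.6 ± 68.5) and CD4 T-like cells (54.8 ± 42.9), with each step within the spread. Ccl4 was led by plasmacytoid dendritic-like (1864 ± 1067 CPM) and CD8 T-like cells (882 ± 847), and Ccl3 by CD8 T-like (226 ± 310 CPM) and CD4 T-like cells (178 ± 136), again within their spread. The CD4 T-like Ccl3 value of WT replicate 1 (368 CPM) came from 1 cell, without which it was 0.

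Cxcl9 was led by macrophage-like (1317 ± 1565 CPM) and monocyte-like cells (943 ± 1073), and Cxcl10 by monocyte-like (201 ± 179 CPM) and regulatory T-like cells (151 ± 163), neither pair apart by more than its spread. Cxcl16 was higher in macrophage-like (638 ± 101 CPM) than in monocyte-like cells (175 ± 140) by more than the spread, and monocyte-like and fibroblast-like cells (64.1 ± 14.1) lay within it. Cxcr3 was highest in regulatory T-like (112 ± 54.6 CPM), plasmacytoid dendritic-like (75.9 ± 16.1) and CD8 T-like cells (71.2 ± 24.6), within their spread, and lowest among lymphocytes in NK-like cells (27.5 ± 2.55). Cxcr6 was highest in CD4 T-like (541 ± 46.0 CPM) and CD8 T-like cells (392 ± 159.6), a step within the spread, and lowest among lymphocytes in NK-like cells (54.5 ± 10.7). Both genotypes enter these SDs, so they include any difference between hosts.

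**Figure D1:**
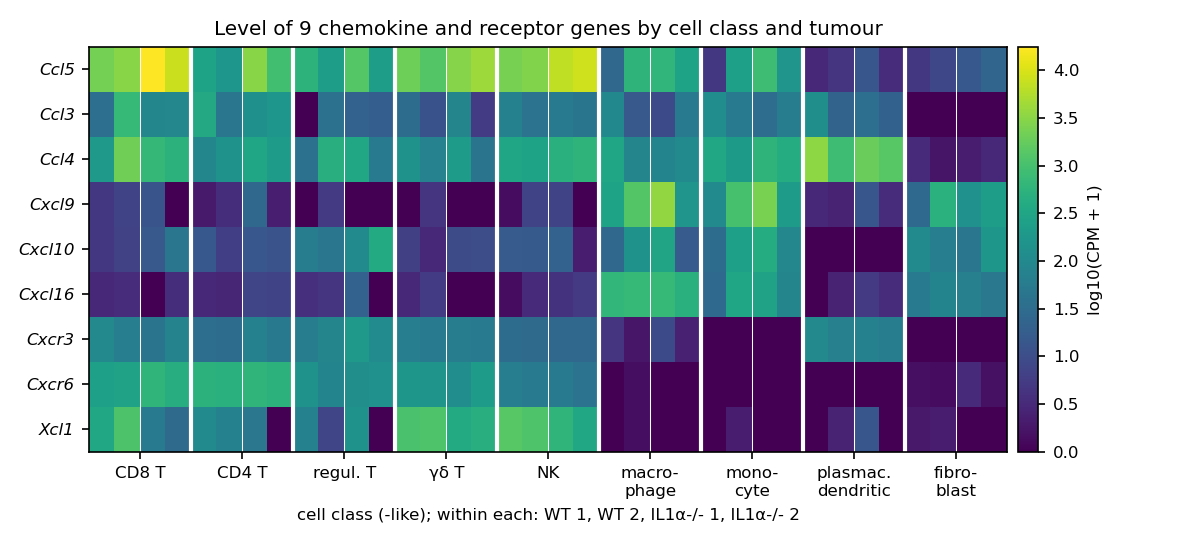
Heat map of log10(CPM + 1) for the 9 genes (rows) in 9 cell classes, with 4 columns per class for WT replicates 1 and 2 and IL1α-/- replicates 1 and 2. Ccl5 is brightest in the CD8 T-like and NK-like columns of the IL1α-/- tumours (6780.1 to 17558 CPM), and Ccl4 in plasmacytoid dendritic-like cells. By mean level Cxcl9 and Cxcl16 lead in macrophage-like and monocyte-like cells, and Cxcl10 in monocyte-like and regulatory T-like cells.

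Ccl5, Ccl3 and Ccl4 lie on chromosome 11 (GRCm38). Ccl3 (ENSMUSG00000000982, 83647844 to 83649355, minus strand) and Ccl4 (ENSMUSG00000018930, 83662584 to 83664683, plus strand) are 13.2 kb apart, and Ccl5 (ENSMUSG00000035042, 83525778 to 83530518, minus strand) is 117 kb from Ccl3. All 3 encode CC chemokines, secreted attractants of T cells and monocytes.

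Ccl5, a ligand that effector lymphocytes make in quantity, was higher in the T/NK-like cells of both IL1α-/- tumours. It stood at 1624, 1604, 11237 and 6100.4 CPM, from 12816, 18972, 40631 and 52259 UMIs. The groups did not overlap, and the WT tumours lay close together while the IL1α-/- tumours differed among themselves. The means were 1614 ± 14.1 and 8669 ± 3632 CPM (SD, n = 2 each), a 5.37-fold ratio. In edgeR's quasi-likelihood fit to the summed counts the log2 fold change was 2.45 (SE 0.28, Benjamini-Hochberg adjusted p = 0.00711 over 11100 genes), called under all 11 alternatives with adjusted p at most 0.0291. Across that fit 579 genes (5.22%) passed an adjusted p of 0.05, 346 higher and 233 lower, and 2244 passed with the replicate number as a block. Of the 9 chemokine genes, 2 were called higher (Ccl5 and Cxcr6) and 1 lower (Xcl1).

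The CD8 T-like share of the class moved with this result. With the lymphocyte gates weighted by the same shares in all 4 tumours, Ccl5 stood at 1716, 1916, 8709 and 5658 CPM, a 3.96-fold ratio, so the groups still did not overlap. These gates include the lymphocytes that the others left unresolved, with 25.3%, 25.0%, 28.2% and 23.8% of the class UMIs. The weighting does not hold the make-up inside any gate equal. The share of T/NK-like cells with a Ccl5 UMI was 50.7%, 51.9%, 76.7% and 69.6%. The exact 95% binomial interval of the value for IL1α-/- replicate 1 ran from 74.9% to 78.4%; this and the other intervals cover counting error only. After thinning each cell to 1000 UMIs, which leaves out 73 to 720 T/NK-like cells per tumour, the shares were 40.2%, 38.4%, 76.5% and 63.0%. In fibroblast-like cells, which carried more UMIs per cell (median 3138 to 10642 against 1256 to 4075), the unthinned share was 2.04% to 7.14%.

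Within the gates, Ccl5 rose in CD8 T-like, NK-like, CD4 T-like and gamma-delta T-like cells. CD8 T-like cells had 2242, 3050.5, 17558 and 8062 CPM, a log2 fold change of 2.20 (SE 0.34, edgeR adjusted p = 0.0162). These groups did not overlap, but the call rested on both WT tumours: without WT replicate 1 the value was 2.00 (adjusted p = 0.316) and without WT replicate 2 it was 2.45 (adjusted p = 0.31). In that class 7 of the 9 genes could be tested and 2 were called, 1 in each direction, against 1.6% of 8357 genes tested.

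NK-like cells had 2369, 2808, 6780.1 and 8572 CPM of Ccl5, a log2 fold change of 1.56 (SE 0.19, edgeR adjusted p = 1.73e-05). Each IL1α-/- tumour was above each WT tumour, and the call held under all 10 alternatives, with adjusted p at most 3.04e-05. Among 8862 genes tested in NK-like cells 17% were called, and among 8 chemokine genes 2 were called higher (Ccl5 and Ccl4) and 1 lower (Xcl1).

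CD4 T-like cells, helper T cells by their markers, had much less Ccl5: 291, 171, 3081 and 901 CPM, a log2 fold change of 3.07 (SE 0.42, edgeR adjusted p = 0.00157). The IL1α-/- values again exceeded both WT values, under all 10 alternatives with adjusted p at most 0.0121. In this class 7 of the 9 genes were tested and 2 called, 1 in each direction, against 2.71% of 7377 genes. Free RNA, read from barcodes with at most 100 UMIs, had a higher Ccl5 level than these cells in every tumour. Its part in the CD4 T-like values was not tested.

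Gamma-delta T-like cells had 2050.4, 1293, 2958 and 4151 CPM of Ccl5, a log2 fold change of 1.12 (SE 0.23, edgeR adjusted p = 0.00351). The groups did not overlap, but the call was lost without WT replicate 2 (0.79, adjusted p = 0.167) and without IL1α-/- replicate 2 (0.75, adjusted p = 0.301). In this class 6 of the 9 genes were tested and 2 called, 1 in each direction, against 7.24% of 6765 genes. Regulatory T-like cells had 562, 231, 1319.8 and 237 CPM of Ccl5, the groups overlapped, and the change did not pass the test (0.70, SE 0.48, edgeR adjusted p = 0.598). The CD8 T-like gate held 8.97%, 19.8%, 71.0% and 64.5% of all T/NK-like Ccl5 UMIs and the NK-like gate 51.3%, 49.8%, 10.6% and 15.3%.

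**Figure D2:**
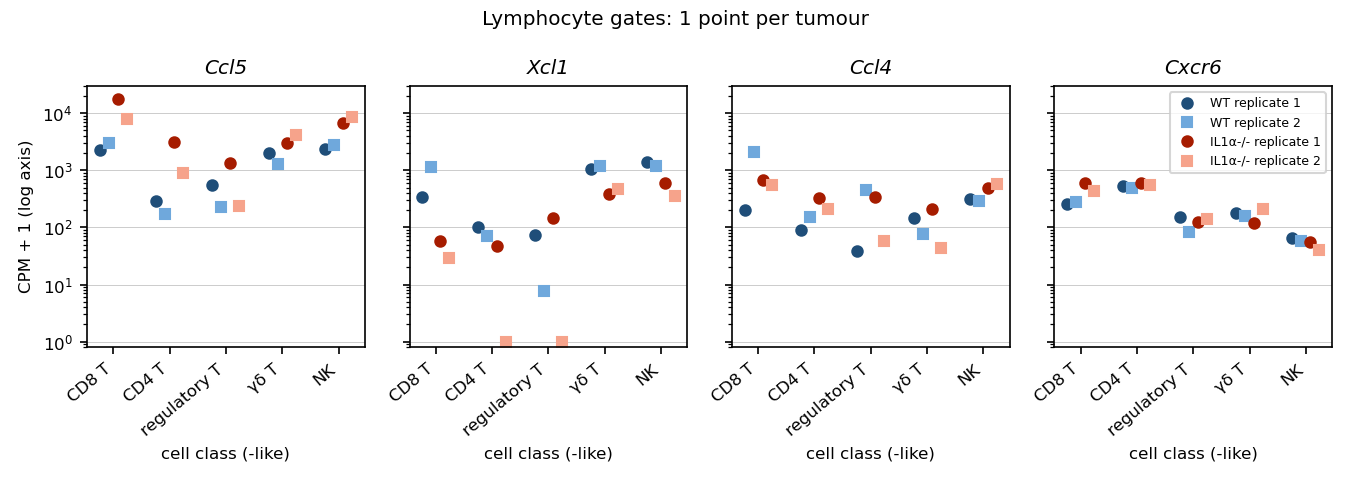
CPM + 1 (log axis) of Ccl5, Xcl1, Ccl4 and Cxcr6 in 5 lymphocyte classes, 1 point per tumour (blue, WT; red, IL1α-/-; circles, replicate 1; squares, replicate 2). For Ccl5 both red points lie above both blue points in every class but the regulatory T-like one, and for Xcl1 both lie below in CD8 T-like, CD4 T-like, gamma-delta T-like and NK-like cells.

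Phagocyte-like cells had far less Ccl5, at 36.4, 451, 668 and 219.9 CPM, and the WT and IL1α-/- values overlapped. The log2 fold change was 0.78 (SE 0.91, edgeR adjusted p = 0.736), and it changed sign without WT replicate 1 (-0.11) or IL1α-/- replicate 1 (-0.08). Free RNA, read from barcodes with at most 100 UMIs, held 379, 639, 3366 and 2432 CPM of Ccl5, more than the phagocyte-like cells of every tumour, and its part in these values was not tested. The regulatory T-like levels were also below those of free RNA in every tumour but WT replicate 1. None of the 6 chemokine genes tested in phagocyte-like cells was called by edgeR or DESeq2, and none had an unadjusted p under 0.05. In that fit 7 of 8865 genes (0.079%) were called, and 231 with the replicate block. Conventional dendritic-like cells reached 3810.4, 659.8, 0 and 3607 CPM of Ccl5, but from only 19, 35, 4 and 14 cells.

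Ccl3, the alpha form of macrophage inflammatory protein 1, showed no called change between genotypes in any lymphocyte class. T/NK-like cells had 81.2, 108, 73.3 and 69.1 CPM, from 641, 1272, 265 and 592 UMIs (log2 fold change -0.38, SE 0.18, edgeR adjusted p = 0.245). Although the groups did not overlap, the level in WT replicate 1 came largely from 1 CD4 T-like cell with 352 UMIs, 54.9% of the Ccl3 UMIs of the class there. Without that cell the level was 36.7 CPM, below both IL1α-/- tumours. With the lymphocyte gates at equal shares Ccl3 stood at 70.1, 222, 72.1 and 56.8 CPM, so the groups then overlapped, and the ratio of means went from 0.754-fold to 0.442-fold.

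In CD8 T-like cells there were 35.1, 689.8, 87.6 and 92.4 CPM of Ccl3, so the highest and the lowest tumour were both WT. In WT replicate 2 the 848 UMIs lay mostly in few cells, 75.8% of them in 5 cells. The log2 fold change of -2.12 (SE 0.83, edgeR adjusted p = 0.28) turned to 1.30 without that tumour, and passed with no filter on low counts (-2.08, adjusted p = 4.12e-12) and without IL1α-/- replicate 2 (-2.18, adjusted p = 5.68e-09). NK-like cells had 72.1, 40.4, 58.1 and 44.0 CPM, with overlapping groups (-0.15, SE 0.27, edgeR adjusted p = 0.747). Fibroblast-like cells had no Ccl3 UMI in any tumour.

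Mast/basophil-like cells, few in number (5, 10, 1 and 7), had by far the highest Ccl3 levels: 13796, 16166, 0 and 16476 CPM. IL1α-/- replicate 1 held a single such cell of 501 UMIs, in which 3 UMIs would already be 5988 CPM. Neutrophil-like cells (41, 49, 3 and 9) had 645, 781, 2607 and 1271 CPM. Phagocyte-like cells were lower, at 91.1, 23.8, 29.9 and 59.5 CPM, with overlapping groups (log2 fold change -0.08, SE 0.59, edgeR adjusted p = 0.983).

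Ccl4, the beta form of the same protein pair, was called higher in NK-like cells. There it stood at 315, 288, 490.0 and 572 CPM, a log2 fold change of 0.82 (SE 0.16, edgeR adjusted p = 0.00135). Both IL1α-/- tumours exceeded both WT tumours, and the call held under all 10 alternatives, with adjusted p at most 0.0147.

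In T/NK-like cells as a whole Ccl4 had 182, 422, 532 and 399 CPM. The lower IL1α-/- value fell below the higher WT value, and the log2 fold change of 0.65 (SE 0.35, edgeR adjusted p = 0.298) passed with the replicate block (0.76, adjusted p = 0.0313), with no filter on low counts (0.61, adjusted p = 0.0279) and without IL1α-/- replicate 2 (0.82, adjusted p = 0.00261). With the gates at equal shares the levels were 178, 746, 473 and 362 CPM, and the ratio of means turned from 1.54-fold to 0.904-fold. CD8 T-like cells had 199, 2117, 668 and 543 CPM, again with WT tumours at both ends (-1.02, SE 0.73, edgeR adjusted p = 0.575, and 1.54 without WT replicate 2). It too passed with no filter on low counts (-0.98, adjusted p = 0.00355) and without IL1α-/- replicate 2 (-0.89, adjusted p = 0.03). One cell held 836 of the 2603 Ccl4 UMIs of WT replicate 2 in this gate. CD4 T-like cells had 87.9, 149.8, 325 and 210.0 CPM (1.07, SE 0.29, edgeR adjusted p = 0.0698), with no overlap.

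Plasmacytoid dendritic-like cells were a second site of Ccl4, at 3344, 859, 1856 and 1399 CPM in 172, 91, 92 and 79 cells. They held 53.0% of the Ccl4 UMIs of WT replicate 1 and 7.13% to 15.8% of those of the other 3 tumours, and the genotypes overlapped. Neutrophil-like cells had 4024, 4464, 7821 and 6354 CPM and mast/basophil-like cells 25024, 32869, 7984 and 29016 CPM. In phagocyte-like cells the values were 295, 125, 339 and 219.9 CPM, with overlapping groups (log2 fold change 0.41, SE 0.38, edgeR adjusted p = 0.658).

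Ccl3 and Ccl4 were often found in the same cells. Of NK-like cells with a Ccl3 UMI, 44 of 78, 35 of 51, 12 of 18 and 23 of 31 also had a Ccl4 UMI, whereas 17.8%, 17.5%, 20.2% and 34.0% of those without Ccl3 had one. In CD8 T-like cells the counts were 4 of 6, 27 of 29, 47 of 63 and 53 of 66. Cells with more UMIs show more genes of any kind, and the part of depth in these counts was not tested.

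Ccr1, a receptor of Ccl3 and Ccl5, had 228, 255, 166 and 153 CPM in phagocyte-like cells (-0.58, SE 0.21, edgeR adjusted p = 0.28), and 1378, 1724, 521 and 1271 CPM in neutrophil-like cells.

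Xcl1 (ENSMUSG00000026573, chromosome 1, 164931644 to 164935527, minus strand) encodes lymphotactin, which NK and T cells release to attract dendritic cells. In contrast to Ccl5 it was lower in the IL1α-/- tumours. T/NK-like cells had 878, 805, 219.6 and 105 CPM, from 6926, 9517, 794 and 900 UMIs. Each WT tumour exceeded each IL1α-/- tumour, and the means of 841 ± 51.6 and 162 ± 81.0 CPM (SD, n = 2 each) differed 5.18-fold. The fitted log2 fold change was -2.35 (SE 0.31, edgeR adjusted p = 0.00944), called under all 11 alternatives with adjusted p at most 0.0246.

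With the gates at equal shares Xcl1 stood at 739, 892, 264 and 158 CPM, still without overlap and 3.86-fold higher in WT. The share of T/NK-like cells with an Xcl1 UMI was 41.4%, 40.3%, 13.3% and 12.4%, and after thinning 29.6%, 23.6%, 12.9% and 6.25%. In fibroblast-like cells the unthinned share was at most 1.46%.

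NK-like and gamma-delta T-like cells had the highest Xcl1 levels. NK-like cells had 1393, 1174, 606 and 349.7 CPM, a log2 fold change of -1.44 (SE 0.20, edgeR adjusted p = 7.91e-05). The groups did not overlap, and the call held under all 10 alternatives with adjusted p at most 0.000161. Gamma-delta T-like cells had 1074, 1171, 388 and 479 CPM (-1.32, SE 0.20, edgeR adjusted p = 0.00015). This call was lost without IL1α-/- replicate 2 (-1.61, adjusted p = 0.0546).

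CD8 T-like cells had 343, 1152, 57.8 and 28.2 CPM of Xcl1, a log2 fold change of -4.24 (SE 0.56, edgeR adjusted p = 0.00828). The WT tumours stood far apart, and both were above both IL1α-/- tumours. In WT replicate 2, 1 cell held 499 of the 1416 UMIs. The call was lost without WT replicate 1 (-4.85, adjusted p = 0.0659) or WT replicate 2 (-3.10, adjusted p = 0.13). CD4 T-like cells had 101, 71.1, 46.5 and 0 CPM (-3.34, SE 0.77, edgeR adjusted p = 0.034). This call was lost with DESeq2 (-1.96, adjusted p = 0.869), with at least 1000 UMIs per cell (adjusted p = 0.0582) and without IL1α-/- replicate 2 (-0.92). Free RNA had a higher Xcl1 level than CD4 T-like cells in every tumour but IL1α-/- replicate 1, and its part was not tested.

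Ccl5 and Xcl1 were detected in different proportions of the same cells. Among NK-like cells with an Xcl1 UMI, 64.2%, 62.5%, 72.2% and 92.1% also had Ccl5, and among those without Xcl1 86.2%, 85.0%, 86.1% and 95.1% did. The share was thus lower in Xcl1-positive NK-like cells of every tumour, and in CD8 T-like cells likewise (63.9%, 62.8%, 70.6% and 81.3% against 67.0%, 73.7%, 94.8% and 93.8%). In gamma-delta T-like cells it was the other way round in every tumour, with Ccl5 in 70.8%, 61.6%, 84.6% and 92.3% of cells with Xcl1 against 67.6%, 60%, 66.1% and 63.9% of those without. The gamma-delta T-like gap was small in the WT tumours, with 114 of 161 against 48 of 71 cells in replicate 1. In WT replicate 2 it was 106 of 172 against 60 of 100 cells. These shares were not tested, and neither was the part of depth in them.

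Xcr1, the receptor of Xcl1, marked conventional dendritic-like cells, where 36.1% of 72 cells had a UMI. Its level there was 196, 426, 893 and 92.5 CPM, from 24, 95, 13 and 8 UMIs. The IL1α-/- tumours were at both ends of that range, and no test was made because each of them held fewer than 20 such cells.

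Cxcl9 (ENSMUSG00000029417, chromosome 5, 92321347 to 92328079, minus strand) and Cxcl10 (ENSMUSG00000034855, chromosome 5, 92346638 to 92348889, minus strand) are neighbours 18.6 kb apart. The 250 bases before the start of each are shown because both genes were high in the same tumours in phagocyte-like cells, though not in fibroblast-like or T/NK-like cells. They come from RefSeq (GRCm38.p6, minus strand, 5′ to 3′), which matched 6 of the 9 genes, and capitals mark the motif matches described next.
Cxcl9 (chr5:92328080-92328329): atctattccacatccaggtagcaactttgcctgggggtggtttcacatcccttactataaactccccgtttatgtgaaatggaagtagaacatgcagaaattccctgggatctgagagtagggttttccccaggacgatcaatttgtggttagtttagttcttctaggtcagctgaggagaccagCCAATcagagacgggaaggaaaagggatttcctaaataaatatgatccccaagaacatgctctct
Cxcl10 (chr5:92348890-92349139): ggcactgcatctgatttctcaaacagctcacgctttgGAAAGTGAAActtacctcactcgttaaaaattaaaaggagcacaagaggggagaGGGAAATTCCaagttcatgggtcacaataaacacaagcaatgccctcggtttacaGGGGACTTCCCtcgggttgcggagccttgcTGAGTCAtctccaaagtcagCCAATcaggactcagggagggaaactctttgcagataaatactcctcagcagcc

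The search covered both strands of 32851 RefSeq windows of 250 bases. The interferon-stimulated response element, spelled GAAANNGAAA, occurs in 2.98% of the windows and once in that of Cxcl10, where it begins at -213 from the start. The NF-kB site occurs in 7.25% of the windows and begins at -159, -104 and -103 in that of Cxcl10, the last pair overlapping. The AP-1 site TGANTCA (6.75% of windows) begins at -74 of Cxcl10, and the CCAAT box (33.8% of windows) at -54 of Cxcl10 and -65 of Cxcl9. The gamma-interferon activation site TTCNNNGAA (7.02% of windows) matched none of the 6 windows. A match describes letters only and no binding was measured.

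Cxcl9, the monokine induced by interferon gamma, was highest in macrophage-like and monocyte-like cells among classes with at least 20 cells per tumour, and its level varied widely between tumours of the same genotype. Phagocyte-like cells had 324, 1184, 2669.8 and 195 CPM, from 640, 4333, 803 and 325 UMIs. The IL1α-/- tumours were the highest and the lowest of the 4, on either side of both WT tumours. Means were 754 ± 608 and 1433 ± 1749.8 CPM (SD, n = 2 each), and the log2 fold change of 0.84 (SE 0.95, edgeR adjusted p = 0.728) became -1.86 without IL1α-/- replicate 1.

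Macrophage-like cells had 289, 1273, 3544 and 162 CPM of Cxcl9 and monocyte-like cells 101, 1028, 2428 and 214 CPM. WT replicate 2 and IL1α-/- replicate 1 were thus the high tumours in both. The share of phagocyte-like cells with a Cxcl9 UMI followed that order, at 9.57%, 40.6%, 50% and 14.7%, and at 6.52%, 29.0%, 49.6% and 7.33% after thinning. In T/NK-like cells, at a lower median depth, it was 0.085% to 2.21%.

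Fibroblast-like cells had 27.6, 516, 142 and 229 CPM of Cxcl9, with WT tumours at both ends. Tumour epithelial-like cells, gated on Epcam, keratins and other epithelial genes, had 5.49, 559, 4434 and 0 CPM of Cxcl9. Whether all of them belong to the implanted line was not tested. The IL1α-/- tumours held only 24 and 3 of them, and 1 cell of IL1α-/- replicate 1 held 32.4% of its 553 UMIs. Free RNA had 45.1, 484, 644 and 84.9 CPM of Cxcl9, with the same pair of tumours high, and its part in the levels of classes with few cells was not tested. By UMIs, phagocyte-like cells held 79.0%, 50.9%, 39.6% and 38.8% of Cxcl9 and fibroblast-like cells 7.16%, 15.8%, 5.96% and 51.3%.

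Cxcl10, another interferon-inducible ligand of Cxcr3, was lower than Cxcl9 and followed it across phagocyte-like cells. They had 22.3, 171, 439 and 58.3 CPM, from 44, 625, 132 and 97 UMIs. Again WT replicate 2 and IL1α-/- replicate 1 were high and the groups overlapped (log2 fold change 1.15, SE 0.97, edgeR adjusted p = 0.627, and -0.68 without IL1α-/- replicate 1). With no filter on low counts Cxcl10 passed the test in this class (1.08, adjusted p = 0.0044).

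Macrophage-like cells with a Cxcl10 UMI often had Cxcl9 as well, in 7 of 13, 37 of 44, 8 of 8 and 1 of 3 cells. Among macrophage-like cells without Cxcl10, 22 of 239, 161 of 384, 20 of 42 and 23 of 141 had Cxcl9. IL1α-/- replicate 2 held too few positive cells to compare. In monocyte-like cells Cxcl9 was found in 2 of 5, 11 of 32, 14 of 14 and 1 of 12 cells with Cxcl10, and in 0 of 69, 41 of 121, 11 of 33 and 11 of 135 without it. The monocyte-like shares were thus nearly equal in WT replicate 2 (34.4% and 33.9%) and IL1α-/- replicate 2 (8.33% and 8.15%). Tumour epithelial-like cells had 0.220, 118, 1227 and 0 CPM of Cxcl10 and neutrophil-like cells 88.9, 899, 1043 and 0 CPM, the latter from 4, 61, 2 and 0 UMIs.

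Cxcl10 was also found in lymphocytes and fibroblasts. Fibroblast-like cells had 102, 64.0, 45.6 and 173 CPM, with IL1α-/- tumours at both ends. T/NK-like cells had 18.3, 13.0, 18.5 and 43.8 CPM, a log2 fold change of 1.10 (SE 0.36, edgeR adjusted p = 0.108), and it passed with the replicate block (1.04, adjusted p = 0.00787) and with no filter on low counts (1.09, adjusted p = 6.45e-06). IL1α-/- replicate 1 was barely above WT replicate 1, and without IL1α-/- replicate 1 the value was 1.57 (adjusted p = 5.81e-10).

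Regulatory T-like cells had the highest lymphocyte levels of Cxcl10, at 61.5, 45.9, 105 and 394 CPM, from 43, 55, 5 and 68 UMIs. Cd4 was found in 40.6% of these cells and Epcam, an epithelial marker, in 19.1%. In CD8 T-like, CD4 T-like, gamma-delta T-like and NK-like cells Epcam was found in 1.31% to 2.97%. The part of this in the Cxcl10 levels was not tested. The WT and IL1α-/- values of Cxcl10 did not overlap, and the log2 fold change was 2.45 (SE 0.39, edgeR adjusted p = 0.00424). The 5 UMIs of IL1α-/- replicate 1 allow 34.0 to 244 CPM (exact 95% Poisson interval). Without IL1α-/- replicate 2 the call was lost (0.71, adjusted p = 0.708), and DESeq2 gave the gene no adjusted p in this class. Of 6 genes tested in this class Cxcl10 was the 1 called, against 0.658% of 5473 genes. CD8 T-like cells had 3.90, 5.69, 14.6 and 45.5 CPM (2.55, SE 0.66, edgeR adjusted p = 0.103, and 0.0149 with the replicate block). Plasmacytoid dendritic-like cells gave no Cxcl10 UMI in any tumour.

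**Figure D3:**
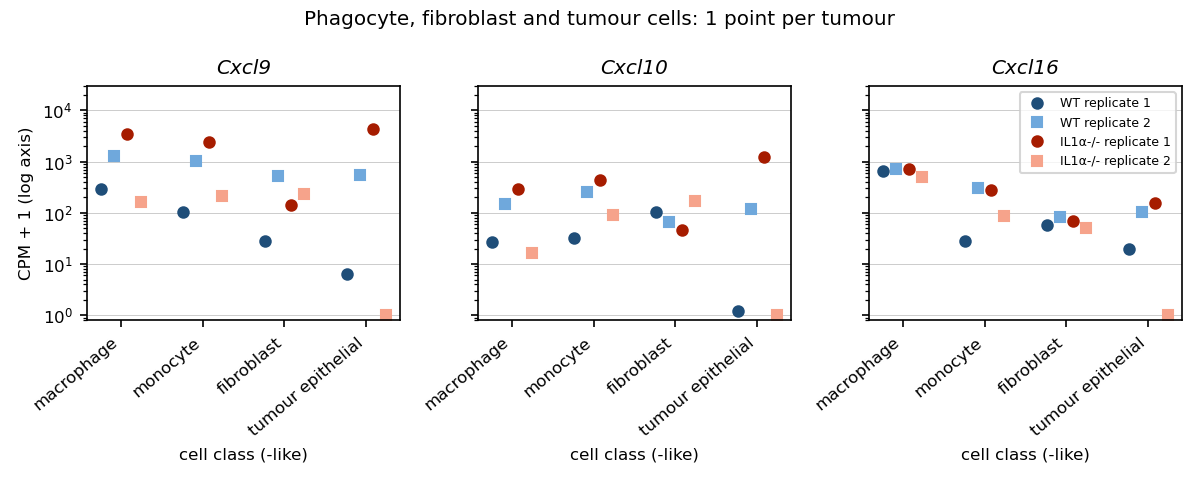
CPM + 1 (log axis) of Cxcl9, Cxcl10 and Cxcl16 in macrophage-like, monocyte-like, fibroblast-like and tumour epithelial-like cells, 1 point per tumour (blue, WT; red, IL1α-/-; circles, replicate 1; squares, replicate 2). In macrophage-like and monocyte-like cells WT replicate 2 and IL1α-/- replicate 1 are the high tumours for Cxcl9 and Cxcl10, and macrophage-like Cxcl16 lies between 492 and 707 CPM in all 4.

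Cxcr3 (ENSMUSG00000050232, chromosome X, 101731535 to 101734269, minus strand), the receptor of Cxcl9 and Cxcl10, showed no called difference in any lymphocyte class. T/NK-like cells had 51.5, 52.6, 47.6 and 67.9 CPM, with the IL1α-/- tumours at both ends (log2 fold change 0.21, SE 0.19, edgeR adjusted p = 0.545). CD8 T-like cells had 99.5, 64.3, 41.4 and 79.5 CPM, with overlap (-0.42, SE 0.35, edgeR adjusted p = 0.644). Regulatory T-like cells had 63.0, 86.0, 189 and 110.0 CPM and CD4 T-like cells 33.5, 31.1, 73.1 and 50.3 CPM. In both the IL1α-/- tumours were higher, but neither passed the test (0.75, SE 0.38, edgeR adjusted p = 0.443, and 0.80, SE 0.31, edgeR adjusted p = 0.196).

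NK-like cells were low and even in Cxcr3, at 30.6, 28.5, 25.1 and 25.7 CPM (-0.22, SE 0.26, edgeR adjusted p = 0.626). Plasmacytoid dendritic-like cells carried the receptor at 98.8, 70.6, 73.2 and 61 CPM and held 4.05% to 17.8% of its UMIs. Phagocyte-like cells had at most 3.32 CPM. The share of T/NK-like cells with a Cxcr3 UMI was 14.8%, 19.2%, 6.55% and 18.0%, lowest in the shallowest library, and 6.37%, 4.95%, 4.11% and 5.85% after thinning. Dpp4, a protease that trims Cxcr3 ligands, had 12.0, 13.0, 18.8 and 20.4 CPM in T/NK-like cells (0.69, SE 0.19, edgeR adjusted p = 0.072, and 0.0157 with the replicate block).

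Cxcl16 (ENSMUSG00000018920, chromosome 11, 70453983 to 70459984, minus strand) was the steadiest of the phagocyte ligands. Phagocyte-like cells had 478, 576, 442 and 294 CPM, from 945, 2109, 133 and 490 UMIs. Both IL1α-/- tumours were below both WT tumours, but the log2 fold change of -0.53 (SE 0.24, edgeR adjusted p = 0.381) did not pass. The macrophage-like share of the class, given above, moved with this level, and its part was not tested. Macrophage-like cells had 648, 707, 704 and 492 CPM and monocyte-like cells 27.1, 308, 281 and 85.5 CPM, so the macrophage-like level was the higher in every tumour. Within each of these gates the genotypes overlapped.

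Conventional dendritic-like cells had 384, 408, 275 and 231 CPM of Cxcl16, and fibroblast-like cells 57.0, 81.3, 69.0 and 49.1 CPM. In T/NK-like cells it stayed between 1.65 and 2.79 CPM. Free RNA held 70.4, 213, 118 and 84.9 CPM. Adam10 and Adam17, the proteases that release the membrane-bound form, were both expressed. Phagocyte-like cells had 158, 157, 273 and 160 CPM of Adam17 (0.42, SE 0.25, edgeR adjusted p = 0.492). They had 186, 153, 156 and 114 CPM of Adam10 (-0.34, SE 0.23, edgeR adjusted p = 0.537). T/NK-like cells had 60.7, 59.3, 79.9 and 79.3 CPM of Adam17 (0.44, SE 0.14, edgeR adjusted p = 0.107, and 0.0209 with the replicate block) and 95.4, 92.8, 116 and 88.5 CPM of Adam10.

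Cxcr6 (ENSMUSG00000048521, chromosome 9, 123806475 to 123811760, plus strand), the receptor of Cxcl16 and a feature of tissue-resident and effector T cells, was higher in the T/NK-like cells of the IL1α-/- tumours. It stood at 221, 199.5, 415 and 357 CPM, from 1747, 2359, 1500 and 3061 UMIs. The groups did not overlap, and the means of 210.5 ± 15.5 and 386 ± 40.7 CPM (SD, n = 2 each) differed 1.83-fold. The log2 fold change was 0.91 (SE 0.17, edgeR adjusted p = 0.0253). The call was lost without WT replicate 1 (0.97, adjusted p = 0.106) and without WT replicate 2 (0.86, adjusted p = 0.188).

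With the gates at equal shares Cxcr6 stood at 243, 219, 347 and 289.7 CPM, a 1.38-fold ratio, still without overlap. The CD8 T-like share of the class moved with the whole-class value, and no single gate passed the test. The CD8 T-like gate had 252, 281, 598 and 437 CPM (0.88, SE 0.24, edgeR adjusted p = 0.113), and it passed with no filter on low counts (0.93, adjusted p = 0.0116) and without IL1α-/- replicate 2 (1.09, adjusted p = 0.0038). CD4 T-like cells were high in all 4 tumours, at 541, 485, 598 and 542 CPM (0.14, SE 0.20, edgeR adjusted p = 0.769). NK-like cells were low, at 65.2, 58.0, 55.0 and 39.7 CPM (-0.41, SE 0.22, edgeR adjusted p = 0.211), with both IL1α-/- tumours below both WT tumours.

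**Figure D4:**
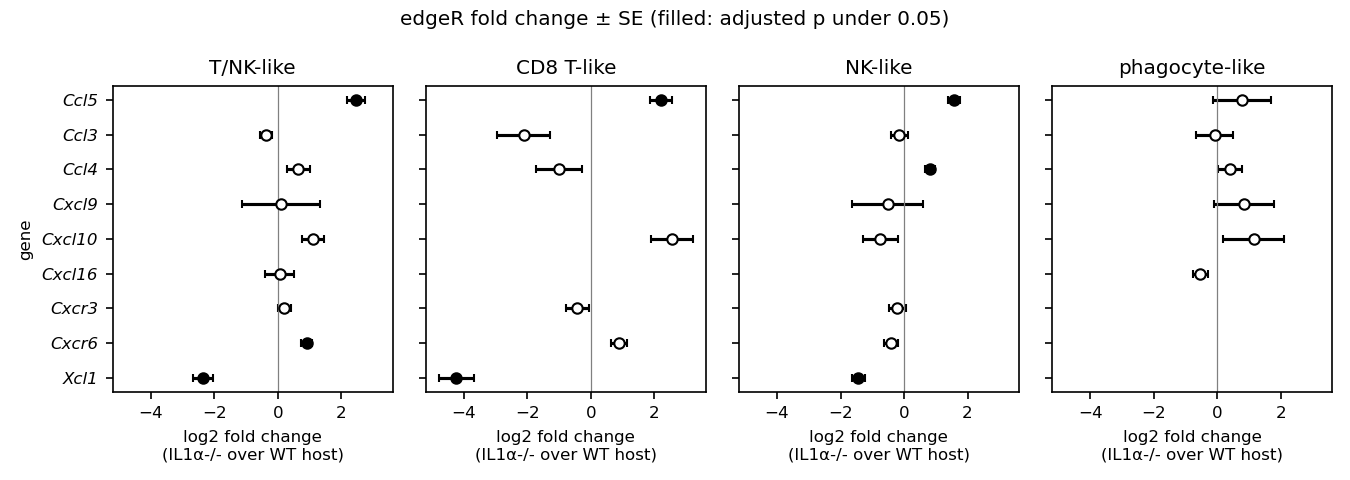
Log2 fold change (IL1α-/- over WT host) with its standard error from edgeR for each of the 9 genes tested in T/NK-like, CD8 T-like, NK-like and phagocyte-like cells; filled points have an adjusted p under 0.05. Ccl5 lies to the right and Xcl1 to the left in the first 3 panels, and no point is filled among phagocyte-like cells.

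Whether the host effect differed between classes was tested directly, with each tumour as a term. Between phagocyte-like and T/NK-like cells none of the 9 genes was called by edgeR (adjusted p from 0.572 to 1) or DESeq2, and none had an unadjusted p under 0.05, against 0.653% of 11175 genes called (73 genes, and 157 with the replicate block). For Ccl5 the phagocyte-like effect was lower by 1.07 on the log2 scale than the T/NK-like one (log2 difference -1.07, SE 0.75, edgeR adjusted p = 0.698). It passed with no filter on low counts (-1.08, adjusted p = 0.000249) and without WT replicate 1 (-2.71, adjusted p = 5.46e-08), and turned to 0.97 without WT replicate 2.

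Between CD8 T-like and NK-like cells, a comparison chosen after the data were seen, 2 of 7 genes were called, against 3.3% of 9038 genes (298 genes, and 711 with the replicate block). The fall of Xcl1 was larger in CD8 T-like than in NK-like cells (log2 difference -2.59, SE 0.44, edgeR adjusted p = 0.00515), a call lost with DESeq2 (-2.55, adjusted p = 0.204) and without IL1α-/- replicate 2 (-2.48, adjusted p = 0.188). Cxcr6 differed the other way (1.31, SE 0.23, edgeR adjusted p = 0.00592), a call also lost without IL1α-/- replicate 2 (1.29, adjusted p = 0.087). The Ccl5 difference was 0.60 (SE 0.29, edgeR adjusted p = 0.34). It passed with the replicate block (adjusted p = 9.12e-06), with no filter on low counts (0.68, adjusted p = 4.88e-10) and without IL1α-/- replicate 2 (1.33, adjusted p = 0.0008), and turned to -0.11 without IL1α-/- replicate 1. Ccl3 (-1.10, adjusted p = 0.00332), Ccl4 (-1.12, adjusted p = 1.93e-07) and Cxcl10 (4.80, adjusted p = 4.87e-08) also passed with the block and not without it.

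Beside these 9 genes, lists of related genes were read in the same fits. Of 8 partners of the ligands and receptors, 7 were tested in T/NK-like and 5 in phagocyte-like cells. None was called by edgeR or DESeq2, with 3 and 1 at an unadjusted p under 0.05. With the replicate block 3 passed in T/NK-like cells, Dpp4 and Adam17 among them, against 2244 of 11100 genes, and none in phagocyte-like cells. Their median log2 fold change in T/NK-like cells was 0.44, beside -0.01 over all genes.

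Of 22 inducers and regulators, 21 were tested in T/NK-like cells, where 3 rose and 1 fell, against 5.22% of 11100 genes called, and the median was 0.17. With the replicate block 10 passed, against 2244 of the 11100 genes. The 3 that rose were Ifngr1, a chain of the interferon gamma receptor (417, 463, 749 and 742 CPM, log2 fold change 0.79, edgeR adjusted p = 0.0369), Irf1, a transcription factor induced by interferon (117, 130, 185 and 235 CPM, 0.81, edgeR adjusted p = 0.0473), and Prdm1, which encodes Blimp-1 (32.6, 36.7, 58.9 and 63.2 CPM, 0.85, edgeR adjusted p = 0.0261). Eomes, a T-box factor of NK and memory T cells, fell (247, 217, 139 and 79.6 CPM, -1.07, edgeR adjusted p = 0.0456). For all 4 the WT and IL1α-/- tumours did not overlap. The NK-like share of the class, given above, moved with Eomes, which was itself one of the markers of the NK gate. The CD8 T-like share moved with the 3 that rose. None of these 4 was recomputed with the gates at equal shares, so the part of the make-up was not tested. In phagocyte-like cells 18 were tested and none was called by edgeR, 6 at an unadjusted p under 0.05 and 1 called by DESeq2 (2 passed with the replicate block, against 231 of 8865 genes). The smallest p there was that of Id2 (221, 181, 379 and 583 CPM, 1.32, edgeR adjusted p = 0.0979, and 0.0232 with the replicate block).

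Of 28 other chemokine ligands, 7 were tested in T/NK-like cells. Ccl1, a ligand of Ccr8 made by activated T cells, fell (127, 253, 50.6 and 25.4 CPM, -2.34, SE 0.39, edgeR adjusted p = 0.0187), with both IL1α-/- tumours below both WT tumours. It was the 1 called of the 7, against 5.22% of all genes. The part of the make-up of the T/NK-like class in the fall of Ccl1 was not tested. In phagocyte-like cells 14 were tested and none was called by edgeR, against 0.079% of all genes, with 5 at an unadjusted p under 0.05 and 2 called by DESeq2. With the replicate block 2 passed in T/NK-like cells, against 2244 of 11100 genes, and 4 in phagocyte-like cells, against 231 of 8865. The smallest p were those of the neutrophil attractants Cxcl2 (654, 435, 2121 and 2182 CPM, 2.01, edgeR adjusted p = 0.0551, and 0.00162 with the replicate block) and Cxcl1 (16.7, 28.4, 59.8 and 73.3 CPM, 1.61, edgeR adjusted p = 0.0837, and 0.013 with the replicate block).

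Of 17 other chemokine receptors, 10 were tested in T/NK-like and 4 in phagocyte-like cells, and none was called by edgeR, with 2 and 3 at an unadjusted p under 0.05 and 0 and 1 called by DESeq2 (3 and 2 with the replicate block, beside the same 2244 and 231 of all genes). The smallest p in phagocyte-like cells was that of Cxcr4, the receptor of Cxcl12 (130, 75.7, 372 and 221 CPM, 1.52, edgeR adjusted p = 0.0951, and 0.00321 with the replicate block). In T/NK-like cells it was that of Cxcr5 (1.65, 2.11, 0 and 0.350 CPM, -2.86, edgeR adjusted p = 0.0684, and 0.0113 with the replicate block).

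The genes most like each of the 9 in pattern were found by Pearson's r of log levels over 36 points, 9 classes in 4 tumours that share libraries, among 6041 genes that are no class marker. These r are descriptions. Nearest to Ccl5 were AW112010 (r = 0.915) and Cst7 (r = 0.892), and to Xcl1 Samd3 (r = 0.913) and Cd160 (r = 0.909). Nearest to Ccl3 was Ccl4 (r = 0.797), and nearest to Ccl4 was Sub1 (r = 0.885). Cxcl9 was closest to Tgfbi (r = 0.900), Cxcl10 to Gbp2 (r = 0.870) and Cxcl16 to Dab2 (r = 0.924). Cxcr6 was closest to Cd247 (r = 0.977) and Cxcr3 to Grap (r = 0.944).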

How the data were processed

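Single-cell libraries of 4 tumours (10x Genomics 3' v3.1) were counted with Cell Ranger 3.1.0, per the submitters' processing notes and the matrix headers, against mm10; the deposited values are raw UMI counts per gene and barcode, all barcodes included, over 64591 human and mouse features. The 31053 mouse features were used (human UMIs were at most 0.00759%). Cells were barcodes reaching 500 UMIs and 250 genes whose mitochondrial share did not exceed 20%. That limit removed 400 barcodes, and 428 more, those with the highest Scrublet doublet scores (scanpy 1.11.5), were removed as likely doublets. Their number per tumour was set in advance by an assumed rate of 0.8% per 1000 cells. No empty-droplet test was run.

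A cell took the class with most detected markers, at least 2 and at least 2 times those of the next class. No chemokine gene is a marker. Of 9385 T/NK-like cells 308 lay at the marker minimum and 182 at the ratio limit, and of 1614 phagocyte-like cells 113 and 82. Sub-gates used other rules, mostly the presence or absence of single genes. Regulatory T-like cells needed a UMI of Foxp3, CD4 T-like cells Cd4, CD8 T-like cells Cd8a or Cd8b1, and gamma-delta T-like cells Trdc. All of these also needed a Cd3 gene. NK-like cells needed at least 2 NK markers and no UMI of a Cd3 gene, Trac, Cd4, Foxp3 or a Cd8 gene. Macrophage-like and monocyte-like cells needed at least 2 of their own markers and more of these than of the other's. Leiden clusters (leidenalg 0.10.2, the 9 genes left out of the variable genes) gave the alternative classes.

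Counts were summed per tumour and class where each tumour had at least 20 cells, and fitted with edgeR 4.0.16 (R 4.3.3; filterByExpr, TMM, quasi-likelihood test, Benjamini-Hochberg over all genes tested); SE is the log2 fold change over the root of F. The fit was tested on simulated counts with the same fixed dispersion for all genes, in which only genes of higher count were changed. Of 200 genes changed 4-fold it called 197 in T/NK-like, 170 in phagocyte-like, 185 in CD8 T-like and 173 in NK-like cells. It also called 8, 7, 8 and 2 unchanged genes. The spread between these tumours was not simulated, so the counts do not give the power of the fits above. DESeq2 1.42.0 was an alternative. Levels in CPM are raw sums over class totals, and 3' counts need no length scaling.

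The labels describe 2 collection pairs on separate days and number the replicates 1 and 2; reading the number as the pair, same-numbered tumours deviated together in T/NK-like cells (r = 0.192 over genes) but not in phagocyte-like (0.013), CD8 T-like (-0.021) or NK-like cells (0.040), and most in fibroblast-like cells (0.404). The 9 genes, the gene lists and the tests were chosen with earlier results of these data known. The named genes were all 9, their partners, and from each list those passing the test or else those with the smallest p. Gene positions are from GENCODE vM21. Cxcl11, Ccl19 and Ccl21a were not analysed here, and a partner gene and a gene of like pattern are not reported here. Alternatives were another test, no count filter, the replicate block, leaving out each tumour, at least 1000 UMIs per cell, no doublet removal, Leiden classes and at least 3 markers, and 2 added after the data were seen: the comparison of CD8 T-like with NK-like cells and levels with the lymphocyte gates at equal shares.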

Additional observations from a re-analysis of the deposited data

Results flagged for a closer look

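Among the 9 genes Xcl1 and Cxcr6 were singled out because the host effect itself differed between lymphocyte classes by an interaction test, in a comparison chosen after the data were seen. Xcl1 fell more in CD8 T-like than in NK-like cells, with a log2 difference of -2.59. Cxcr6 differed by 1.31 on the log2 scale, being higher in the CD8 T-like cells of the IL1α-/- tumours (252, 281, 598 and 437 CPM) and not in their NK-like cells (65.2, 58.0, 55.0 and 39.7 CPM). For Xcl1, 1 CD8 T-like cell of WT replicate 2 held 499 of 1416 UMIs, and its part in the difference was not tested.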

How the results depend on the processing

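Of 353 recomputed fold changes of the 9 genes, 304 kept their direction and side of the threshold, 18 gained a call, 16 lost one and 15 changed sign. The changes of sign without 1 tumour are given with the range over the 4 omissions. Cxcr3 in T/NK-like cells ran from -0.12 (without IL1α-/- replicate 2) to 0.45. In phagocyte-like cells Ccl5 was -0.11 without WT replicate 1 and -0.08 without IL1α-/- replicate 1, with a high of 3.57, and Ccl3 was 1.10 and 0.22 without the same tumours, with a low of -0.94. Ccl4 there ran from -0.064 (without WT replicate 2) to 1.12, Cxcl9 from -1.86 and Cxcl10 from -0.68 (both without IL1α-/- replicate 1) to 2.10 and 3.35. Without WT replicate 2 Ccl3 and Ccl4 in CD8 T-like cells were 1.30 and 1.54, with lows of -3.00 and -1.88. Ccl3 in NK-like cells ran from -0.53 to 0.27 (without WT replicate 1), and was 0.042 without IL1α-/- replicate 2. The Ccl5 difference ran from -2.71 to 0.97 (without WT replicate 2) between T/NK-like and phagocyte-like cells, and from -0.11 (without IL1α-/- replicate 1) to 1.33 between CD8 T-like and NK-like cells. The causes were not tested. With the replicate block Ccl3 in phagocyte-like cells became 0.25, and the calls it changed are given beside their values; it changed no other call among these genes. With gates at equal shares the log2 ratios of Ccl4 and Cxcr3 became -0.15 and -0.030, that of Cxcl16, under 3 CPM in T/NK-like cells, went from -0.031 to 0.36, and that of Ccl3 from -0.41 to -1.18. Thinning turned the difference in the share of T/NK-like cells with Ccl3 from -0.14 to 0.65 percentage points.

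Counts of genes called moved more than those fold changes. T/NK-like cells (579) gave 1712 with no filter, 2244 with the replicate block and 107 to 1552 leaving out 1 tumour. Phagocyte-like cells (7) gave 97 with DESeq2, 504 with no filter, 231 with the replicate block, 16 with no doublet removal, 16 with Leiden classes, 64 with the stricter gate and 0 to 101 leaving out 1 tumour. CD8 T-like cells (134) gave 557 with no filter, 254 with the replicate block, 89 with the stricter gate and 0 to 626 leaving out 1 tumour. NK-like cells (1510) gave 515 with DESeq2 and 860 to 1278 leaving out 1 tumour. The T/NK-like to phagocyte-like difference (73) gave 20 with DESeq2, 297 with no filter, 157 with the replicate block, 115 with the stricter gate and 25 to 177 leaving out 1 tumour, and the CD8 T-like to NK-like difference (298) gave 91, 619, 711 with the replicate block, and 90 to 389. Leaving out 1 tumour leaves a group with a single sample, assumed to vary like the other group. Leiden classes gave no CD8 T-like or NK-like fit. With 2 tumours per genotype an exact permutation test of single values cannot go below 0.333. IL1α-/- replicate 1 limits depth, with 150 phagocyte-like and 26 regulatory T-like cells.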

Other observations

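Unsupervised clusters, made without the 9 genes, showed where their highest levels lay. Ccl5 reached 17767 CPM in a cluster of 1380 cells, of which 7, 29, 841 and 503 came from WT replicates 1 and 2 and IL1α-/- replicates 1 and 2. A cluster of 387 cells had nearly as much, 16681 CPM, and drew 42, 106, 112 and 127 cells from the same tumours. Xcl1 reached 1584 CPM in a cluster of 1218 cells, of which 551, 629, 35 and 3 came from the same tumours. The clusters of 1380 and 1218 cells were therefore filled almost wholly by tumours of 1 genotype, unlike that of 387 cells, and cluster sizes were not compared. Ccl3 and Ccl4 reached 4351 and 8336 CPM in a cluster of 146 cells, of which 48.6% were T/NK-like by the gate. That cluster was mixed, with 11 T/NK markers and 4 mast/basophil markers each found in at least 10% of its cells.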
